A study of Homo sapiens with 6 samples.

Results

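The genes described here are the NF-kB subunits NFKB1, NFKB2, RELA, RELB and REL, the inhibitors NFKBIA, NFKBIB and NFKBIE, and the ubiquitin-handling regulators TNFAIP3 and BIRC3. They were taken by name from the gene expression table, where all 10 were found among 50868 genes, and all 10 passed the filter on low counts. The libraries are RNA sequencing of KYSE-150, an established human cell line from an oesophageal squamous carcinoma. The medium was RPMI 1640 with 10% serum, and the incubator was kept at 37 °C with 5% CO2. A group of 3 siZNF514 libraries, which the labels call a ZNF514 knockout by siZNF514, was compared with a group of 3 nc libraries, which the series text calls wild type. Names beginning with si commonly mark short interfering RNAs, and the labels leave unsaid what nc cells were treated with. Nothing in the labels ties the replicates to separate cultures, so each p-value reflects the spread between these samples alone, and that spread may be technical.

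NF-kB proteins bind DNA as pairs of subunits. In resting cells the IkB proteins, encoded by NFKBIA, NFKBIB and NFKBIE, hold these pairs in the cytoplasm, and in the canonical pathway an IkB kinase complex marks them for destruction. In the non-canonical pathway the kinase encoded by MAP3K14 drives processing of the NFKB2 precursor, which pairs mainly with RELB. NFKB2, RELB, NFKBIA, TNFAIP3 and BIRC3 are themselves well-known NF-kB targets, so the system contains its own feedback. In squamous epithelia NF-kB signalling is known for its part in inflammation and cell survival.

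The libraries held 13262363 to 14318909 counts in siZNF514 and 12175259 to 13696180 in nc. ZNF514, a zinc finger gene, had 64, 82 and 63 counts in the siZNF514 libraries and 239, 273 and 261 in the nc libraries, a log2 fold change of -1.87 (SE 0.14, edgeR quasi-likelihood adjusted p = 5.77e-05). A two-sided exact permutation test of its 6 values could go no lower than the p = 0.1 it gave. CPM are counts relative to the TMM-scaled library size, but sums over markers are relative to total counts. The 8 markers of squamous and simple epithelium, among them KRT5, KRT8 and TP63, were all detected. They summed to 4572 to 5430 CPM in siZNF514 and 4120 to 4440 CPM in nc. They moved both ways: KRT18 (0.77, SE 0.03), KRT8 (0.58, SE 0.11) and EPCAM (0.41, SE 0.04) rose, the basal keratin genes KRT14 (-1.23, SE 0.14) and KRT5 (-0.52, SE 0.07) fell, and the other 3 did not pass. Of 8 leukocyte markers 2 could be tested, of which ITGAM fell, with 5, 5 and 5 counts in siZNF514 and 28, 21 and 28 in nc, and CD68 did not pass. PTPRC, the pan-leukocyte marker, had at most 5 counts in a siZNF514 library and 1 in an nc library. The leukocyte sum, mostly CD68, was 47.3 to 55.7 CPM in siZNF514 and 60.7 to 72.7 CPM in nc, and 4 endothelial markers summed to at most 2.30 CPM in siZNF514 and 3.45 CPM in nc. The library siZNF514 replicate 3 stood apart in its 5 fibroblast markers, which summed to 16.2 CPM there and down to 0.438 CPM in the other siZNF514 libraries, against 1.87 to 3.70 CPM in nc. COL3A1 alone had 112 counts in siZNF514 replicate 3 and 0 in the other siZNF514 libraries. The same library stood apart in the leukocyte markers LYZ (0, 0 and 49 counts in siZNF514, against 7, 2 and 5 in nc) and CD14 (0, 1 and 13 counts in siZNF514, against 4, 8 and 11 in nc). The part of these marker differences in the results was not tested. Without siZNF514 replicate 3 NFKBIE (0.48, edgeR adjusted p = 0.105) and NFKBIB (-0.26, adjusted p = 0.0704) no longer passed, while BIRC3, NFKB2, TNFAIP3 and RELB did. NFKBIE and NFKBIB each passed in only 2 of the 6 fits that left out a library, and also failed without nc replicate 1 or nc replicate 2.

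BIRC3, a ubiquitin ligase, was 2.16-fold higher in siZNF514 than in nc, the subunit gene NFKB2 1.61-fold, the ubiquitin-editing enzyme gene TNFAIP3 1.59-fold and the subunit gene RELB 1.33-fold. NFKBIE also rose and NFKBIB fell, both close to the threshold, while NFKB1, RELA, REL and NFKBIA did not pass. In all, 5 of the 10 genes rose, 1 fell and 4 did not pass the threshold (adjusted p under 0.05, quasi-likelihood test of edgeR), or 60.0% called. Across all 14250 genes tested, 50.6% passed, with 25.5% higher and 25.1% lower in siZNF514. The share of the 10 genes called was thus near that of all genes, and with 10 genes it says nothing particular about them. Their median log2 fold change was 0.34, beside -0.01 over all genes tested. Of all genes called, 50.3% were higher in siZNF514. With total counts alone in place of TMM scaling the median of all genes shifted by -0.13, 34.3% of the genes called were higher, and of the 10 genes 4 rose and 2 fell. In these bulk libraries, fewer cells expressing a gene and less RNA per cell cannot be told apart.

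**Figure D1:**
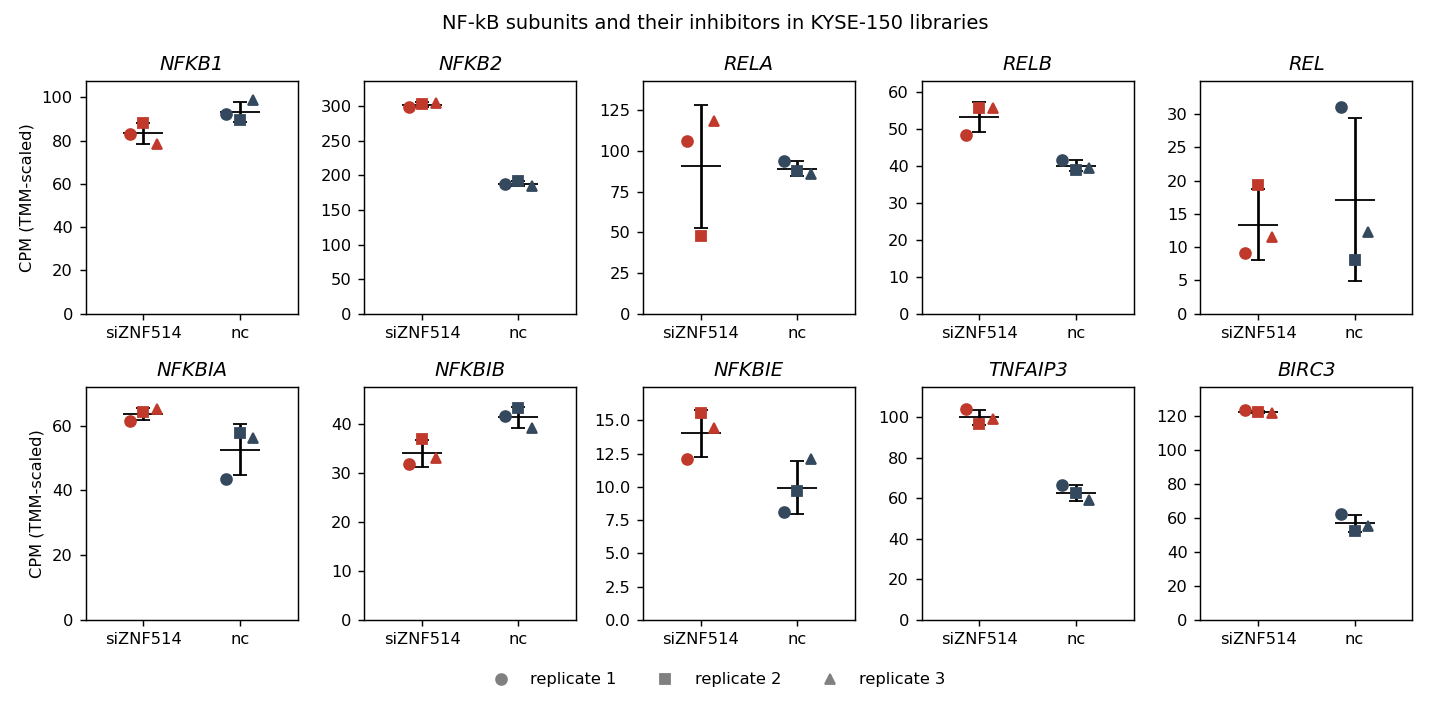
Level of each gene in each library, in CPM after TMM scaling (y axes start at 0 and differ between genes); horizontal lines are group means and bars the SD over 3 libraries. NFKB2, RELB, TNFAIP3 and BIRC3 lie higher in every siZNF514 library, while RELA and REL each have 1 library far from its group.

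The promoter windows of BIRC3, NFKB2 and TNFAIP3, which rose most, and of NFKBIB, which fell, are shown as the start regions of the genes that changed most in each direction. The windows run from 250 bases before to 50 after a RefSeq start site, 5′ to 3′ on the strand of the gene, and capitals mark matches to the 10-base kappa B consensus motif on either strand. Overlapping matches form 1 longer run of capitals.
BIRC3 (GRCh38.p14, chr11:102317234-102317533, plus strand): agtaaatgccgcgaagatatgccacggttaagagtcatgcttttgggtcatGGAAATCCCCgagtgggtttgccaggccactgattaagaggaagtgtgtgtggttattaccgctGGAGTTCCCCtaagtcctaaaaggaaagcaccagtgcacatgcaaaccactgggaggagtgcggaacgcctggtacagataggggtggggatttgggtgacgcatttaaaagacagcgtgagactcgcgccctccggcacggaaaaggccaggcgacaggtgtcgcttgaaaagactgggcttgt
NFKB2 (GRCh38.p14, chr10:102394328-102394627, plus strand): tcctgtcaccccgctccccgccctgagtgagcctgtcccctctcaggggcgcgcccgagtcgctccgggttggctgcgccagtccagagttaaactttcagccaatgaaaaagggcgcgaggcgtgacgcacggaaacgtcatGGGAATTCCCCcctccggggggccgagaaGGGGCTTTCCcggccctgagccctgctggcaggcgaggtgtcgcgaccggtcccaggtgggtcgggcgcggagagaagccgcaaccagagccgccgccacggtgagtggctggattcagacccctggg
TNFAIP3 (GRCh38.p14, chr6:137867009-137867308, plus strand): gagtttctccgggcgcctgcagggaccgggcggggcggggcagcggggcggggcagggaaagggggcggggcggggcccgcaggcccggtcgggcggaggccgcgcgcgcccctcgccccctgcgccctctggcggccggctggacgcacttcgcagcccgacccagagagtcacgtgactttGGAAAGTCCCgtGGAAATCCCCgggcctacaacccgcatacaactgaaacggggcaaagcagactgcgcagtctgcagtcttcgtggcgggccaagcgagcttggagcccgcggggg
NFKBIB (GRCh38.p14, chr19:38899719-38900018, plus strand): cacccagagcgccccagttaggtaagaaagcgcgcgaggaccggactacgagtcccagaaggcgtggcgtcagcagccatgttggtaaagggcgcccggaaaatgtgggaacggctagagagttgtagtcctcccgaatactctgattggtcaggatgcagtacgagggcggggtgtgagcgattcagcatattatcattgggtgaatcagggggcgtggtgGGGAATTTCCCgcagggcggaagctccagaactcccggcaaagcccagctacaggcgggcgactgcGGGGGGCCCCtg
RefSeq windows were matched for 8 of the 10 genes, all but RELB and NFKBIE, and 8 of their 13 windows held the motif, in 7 genes. Of all 35116 windows of this length, 11.3% held it, and of their 27305 genes 13.3% had it in a window. The genes with a match include NFKB1, REL and NFKBIA, which did not pass. The BIRC3 window holds 2 matches, the TNFAIP3 window 2 lying close together, and the NFKB2 window shown 3, of which a pair overlap. The NFKBIB window, of a gene that fell, holds 3 as well, of which a pair overlap. For NFKB2 and NFKBIB the window with the most matches is shown: the other NFKB2 windows hold 0 and 2, and the other NFKBIB window holds 0. A match is a run of letters, not a measured binding site.

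Among the subunits, NFKB2 (ENSG00000077150, GRCh38 chr10:102394110-102402529, plus strand), whose precursor protein can itself act as an inhibitor until it is processed, had the highest level per exon length. It measured 298.6, 302.7 and 305.2 CPM in the siZNF514 libraries, against 188, 192 and 184 CPM in the nc libraries. All 3 siZNF514 libraries lay above all 3 nc libraries, with a spread in each group far smaller than the gap. The log2 fold change was 0.68 (SE 0.04, edgeR quasi-likelihood adjusted p = 1.91e-05) and stayed between 0.67 and 0.70 with each library left out.

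RELB (ENSG00000104856, GRCh38 chr19:45001430-45038198, plus strand), the usual partner of processed NFKB2, had 48.5, 55.7 and 55.7 CPM in siZNF514, against 41.8, 39.0 and 39.4 CPM in nc. The groups did not overlap, and the lowest siZNF514 library was replicate 1. Its log2 fold change of 0.41 (SE 0.07, edgeR adjusted p = 0.00325) was smaller than that of NFKB2, and RELB passed with each library left out (0.39 to 0.49). NFKB1 (ENSG00000109320, GRCh38 chr4:102501329-102617302, plus strand), which encodes the precursor of the subunit that pairs with RELA, had 83.1, 88.4 and 78.6 CPM in siZNF514 and 92.2, 89.6 and 98.6 CPM in nc. These groups did not overlap either, but lay close, and NFKB1 did not pass (-0.17, SE 0.06, edgeR adjusted p = 0.0635). With total counts alone in place of TMM scaling it passed at -0.29 (adjusted p = 0.00701).

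RELA (ENSG00000173039, GRCh38 chr11:65653596-65663094, minus strand) encodes the main activating subunit of the canonical pathway. It had 106, 47.5 and 118 CPM in siZNF514, against 94.0, 87.5 and 85.5 CPM in nc. In siZNF514 the libraries of replicates 1 and 3 were above every nc library and that of replicate 2 was below every one, with 619 counts where the other siZNF514 libraries had 1350 and 1611. RELA did not pass (0.02, SE 0.30, edgeR adjusted p = 0.954), but without siZNF514 replicate 2 it passed as higher (0.34, adjusted p = 0.0127). No other gene in the table overlaps RELA. A library at least 2-fold away from both others of its group was seen in 279 (2.64%) of the 10553 genes that averaged 100 counts or more, in 56 of them for siZNF514 replicate 2. Among the 10 genes it was seen in RELA and REL.

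REL (ENSG00000162924), an activating subunit best known from lymphocytes, had the lowest level per exon length and a wide spread between libraries. Its counts were 117, 252 and 158 in siZNF514 and 400, 115 and 156 in nc, or 9.18, 19.3 and 11.6 CPM in siZNF514 against 31.1, 8.07 and 12.3 CPM in nc. The groups overlapped, with nc replicate 1 far above the rest, and REL did not pass (-0.36, SE 0.51, edgeR adjusted p = 0.585). Its sign turned without nc replicate 1 (0.40, adjusted p = 0.396).

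The REL locus is split in the table between REL (GRCh38, chr2:60881521-60931610, plus strand) and AC010733.1 (chr2:60925909-60931610, plus strand), which GENCODE v29 annotates as a non-coding RNA overlapping the 3′ end. All 5702 exon bases of AC010733.1 lie within REL exons and make up 43.3% of them. AC010733.1 had 140, 65 and 141 counts in siZNF514, against 130, 305 and 292 in nc. The libraries with the most REL counts in each group had the fewest AC010733.1 counts, so that REL took 45.5%, 79.5% and 52.8% of the summed counts in siZNF514 and 75.5%, 27.4% and 34.8% in nc.

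Summed over both entries, the locus was much more even. The sums were 257, 317 and 299 counts in siZNF514, against 530, 420 and 448 in nc, and the groups no longer overlapped. The summed level averaged 22.1 ± 2.08 CPM in siZNF514 and 35.3 ± 5.84 CPM in nc (SD, n = 3 each). Put into the fit of all genes as 1 entry, a choice made after seeing the data, the locus fell by 0.67 on the log2 scale (SE 0.14, edgeR adjusted p = 0.00536). The fall passed in each of the 17 settings run, with log2 fold changes of -0.80 to -0.54 and an adjusted p of at most 0.0224. Reads from the shared bases cannot be assigned to 1 of the 2 genes, so this is a value of the locus and not of REL alone.

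**Figure D2:**
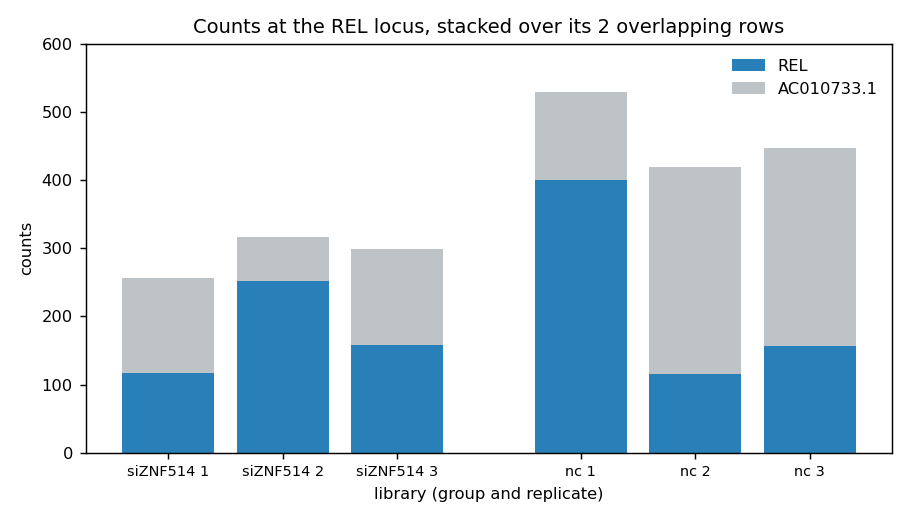
Counts of REL and of AC010733.1, which lies inside its 3′ exons, stacked for each library. The split between the entries varies from 27.4% to 79.5% REL, while the stacked height separates the siZNF514 libraries (257 to 317 counts) from the nc libraries (420 to 530 counts).

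Of the 3 IkB genes, 1 rose, 1 fell and 1 did not pass. NFKBIA (ENSG00000100906, GRCh38 chr14:35401511-35404749, minus strand), whose product is rapidly destroyed and made again in canonical signalling, had 61.5, 64.2 and 65.0 CPM in siZNF514, against 43.5, 57.8 and 56.3 CPM in nc. The groups did not overlap, but nc replicate 1 was well below its group, and NFKBIA did not pass (0.28, SE 0.11, edgeR adjusted p = 0.0695). It passed without nc replicate 2 (0.35, edgeR adjusted p = 0.0470), with the replicate block (0.29, edgeR adjusted p = 0.0461) and with the DESeq2 Wald test (0.28, adjusted p = 0.0213). It passed in no other setting, and was smaller with total counts alone (0.15, edgeR adjusted p = 0.275). Without nc replicate 1 it was 0.16 (edgeR adjusted p = 0.0801), and in the limma-trend fits on FPKM 0.14 to 0.16.

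NFKBIE (ENSG00000146232, GRCh38 chr6:44258166-44265788, minus strand), which encodes IkB epsilon, had 12.1, 15.6 and 14.4 CPM in siZNF514 and 8.07, 9.68 and 12.1 CPM in nc. The groups all but touched, with 154 counts in siZNF514 replicate 1 and 153 in nc replicate 3. It rose (0.50, SE 0.17, edgeR adjusted p = 0.0457) but passed in only 2 of the 6 fits that left out a library, with log2 fold changes of 0.37 to 0.66: those without nc replicate 3 and without siZNF514 replicate 1. With total counts alone it did not pass (0.37, adjusted p = 0.106).

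NFKBIB (ENSG00000104825, GRCh38 chr19:38899700-38908893, plus strand), which encodes IkB beta, went the other way. It had 31.8, 36.9 and 33.1 CPM in siZNF514, against 41.6, 43.1 and 39.1 CPM in nc, and the groups did not overlap. NFKBIB fell by 0.28 on the log2 scale (SE 0.08, edgeR adjusted p = 0.0217), and passed in 2 of the 6 fits that left out a library (-0.34 to -0.23), those without nc replicate 3 and without siZNF514 replicate 2. Its first 163 bases overlap SIRT2 on the other strand, and since the strand setting of the counting is not given, reads there cannot be told apart. SIRT2 did not pass (0.18, SE 0.09, edgeR adjusted p = 0.138).

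The regulators that act through ubiquitin both rose. TNFAIP3 (ENSG00000118503, GRCh38 chr6:137867188-137883312, plus strand), which edits ubiquitin chains and shuts off signalling from tumour necrosis factor receptors, had 104, 96.7 and 98.8 CPM in siZNF514, against 66.7, 62.4 and 58.9 CPM in nc. Every siZNF514 library was far above every nc library, and the log2 fold change was 0.67 (SE 0.06, edgeR adjusted p = 0.000156; 0.63 to 0.72 with each library left out). WAKMAR2, an RNA on the opposite strand that overlaps 1046 bases of TNFAIP3, fell at a low level, with 5, 7 and 3 counts in siZNF514 and 13, 23 and 17 in nc (-1.78, SE 0.38, edgeR adjusted p = 0.00709).

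BIRC3 (ENSG00000023445, GRCh38 chr11:102317450-102339403, plus strand) encodes a ubiquitin ligase that works with TRAF2 and TRAF3 and, in resting cells, keeps the MAP3K14 kinase low. It had 123, 122 and 121 CPM in siZNF514, against 62.2, 52.4 and 55.3 CPM in nc. The siZNF514 libraries were almost equal and far above every nc library. At 1.11 on the log2 scale (SE 0.07, edgeR adjusted p = 3.26e-05), this was the largest change among the 10 genes, and it stayed between 1.06 and 1.18 with each library left out.

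**Figure D3:**
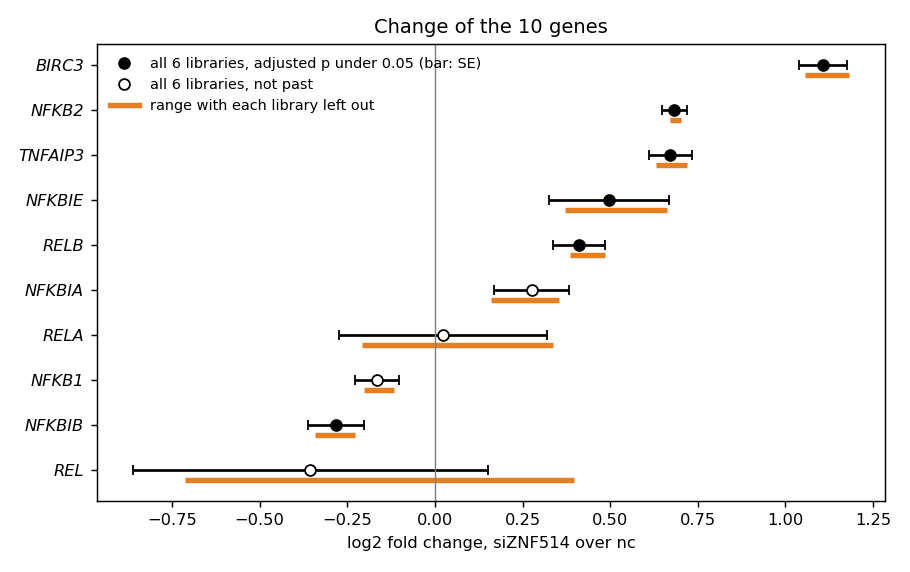
Log2 fold change of each gene, siZNF514 over nc, with its standard error (black) and the range with each of the 6 libraries left out in turn (orange). BIRC3, NFKB2, TNFAIP3 and RELB passed in every such fit, whereas the ranges of RELA and REL cross 0.

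Of the 10 genes, 8 had groups that did not overlap, 6 with siZNF514 above and 2 with it below. Among all genes tested, 60.3% had groups that did not overlap, 30.0% with siZNF514 above and 30.3% with it below. BIRC3, NFKB2, TNFAIP3 and RELB passed in the same direction in all 16 alternative fits, and 8 of the 10 genes, all but RELA and REL, kept their direction in all of them.

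Levels were compared between genes per kilobase of merged GENCODE v29 exons and CPM on total counts, since the lengths implied by the deposited FPKM values exceeded the merged exons in 9 of the 10 genes, by up to 3.28-fold for RELA. On this scale NFKB2 led in both groups, at 64.4 ± 0.437 in siZNF514 and 43.8 ± 0.920 in nc (SD, n = 3 each). NFKBIA came next, at 25.6 ± 0.620 in siZNF514 and 23.1 ± 3.39 in nc. NFKBIE (5.19 ± 0.635 in siZNF514, 4.02 ± 0.803 in nc) and REL (0.969 ± 0.381 in siZNF514, 1.36 ± 0.975 in nc) were last in both. The 5 genes between in nc were NFKBIB, RELA, NFKB1, RELB and TNFAIP3, from 18.5 down to 12.9, and of these RELA and NFKBIB, RELA and NFKB1, and RELB and TNFAIP3 differed by less than the sum of their SDs. BIRC3 stood at 15.5 ± 0.177 in siZNF514, next to RELA at 15.8 ± 6.62, and at 7.86 ± 0.723 in nc, below these 5 genes. By the deposited FPKM the order changed: NFKB1 was second in nc, with RELA seventh.

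**Figure D4:**
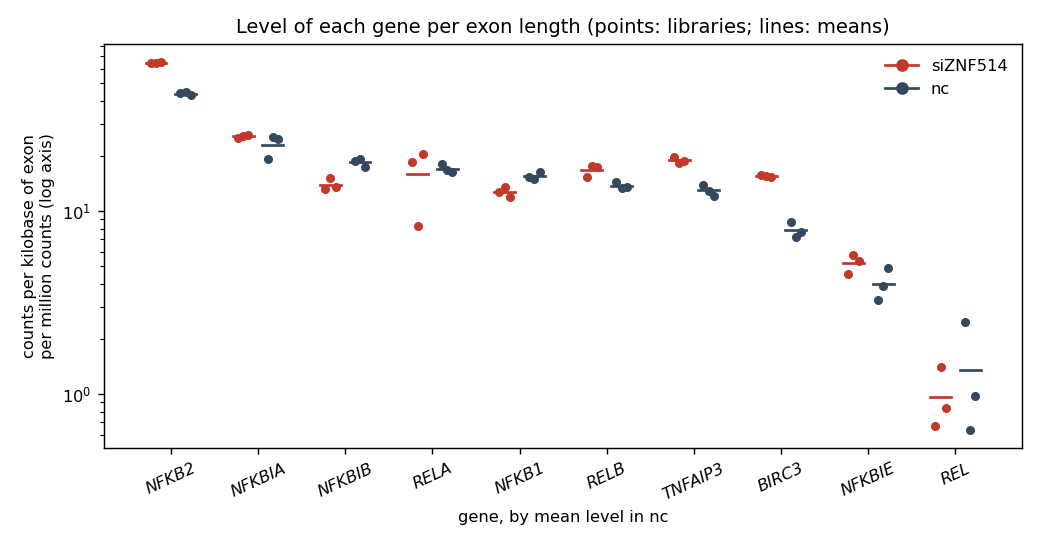
Level of each gene in CPM per kilobase of merged exons in each library (log axis), ordered by the mean in nc; points are libraries and lines are group means. NFKB2 is highest and REL lowest in both groups, and BIRC3 averages 15.5 in siZNF514 and 7.86 in nc.

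The balance between members was described by ratios of FPKM within each library, with no test. NFKB2 over NFKB1 was 5.45, 5.19 and 5.88 in siZNF514 and 3.09, 3.25 and 2.83 in nc, with no overlap. The NFKBIA share of the 3 IkB genes was 0.502, 0.468 and 0.496 in siZNF514, against 0.384, 0.439 and 0.441 in nc, again with no overlap. The 3 IkB genes over the 5 subunits came to 0.268, 0.302 and 0.276 in siZNF514 and 0.322, 0.393 and 0.380 in nc. This last ratio was lower in siZNF514 by FPKM, but with levels per kilobase of merged exons the groups overlapped (0.382, 0.445 and 0.389 in siZNF514, against 0.437, 0.538 and 0.523 in nc). RELA over NFKB1, REL over RELA and RELB over RELA all overlapped between groups. RELB over RELA, for example, was 1.19, 3.04 and 1.22 in siZNF514, where the middle value is replicate 2, and 1.15, 1.15 and 1.20 in nc. Per kilobase of merged exons it was 0.824, 2.11 and 0.849 in siZNF514 and 0.800, 0.802 and 0.830 in nc. Which of these genes is higher thus depends on the length used.

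Other genes of the pathway moved both ways. Of 107 listed genes of ligands, receptors, adaptors, kinases, other restraining factors and targets, 84 could be tested, and 23 rose, 23 fell and 38 did not pass. The share called was 54.8%, beside 50.6% of all genes, and their median log2 fold change was 0.02, beside -0.01. All log2 fold changes below are siZNF514 over nc, and adjusted p-values are from the edgeR quasi-likelihood test over all genes.

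Of 15 tested ligands and receptors, 6 rose, 5 fell and 4 did not pass. The interleukin genes IL1A (0.49, SE 0.04), IL1B (0.46, SE 0.05) and IL18 (0.48, SE 0.07) rose. IL33 had too few counts to test, with 3, 3 and 4 in siZNF514 and 6, 9 and 14 in nc. LTB, a ligand of the lymphotoxin receptor that drives the non-canonical pathway, rose at a low level (5.57, 6.36 and 5.20 CPM in siZNF514, against 3.03, 2.60 and 1.89 CPM in nc). Its receptor gene LTBR fell (-0.42, SE 0.10) and was chosen after its values were seen. TNF had too few counts to test, with 17, 8 and 9 counts in siZNF514 and 8, 11 and 4 in nc.

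Among 20 tested adaptors, 4 rose, 7 fell and 9 did not pass. RIPK1, the kinase scaffold of the tumour necrosis factor receptor, was lower in siZNF514, at 20.8, 22.8 and 20.7 CPM, against 51.4, 52.5 and 54.7 CPM in nc (-1.30, SE 0.07, edgeR adjusted p = 1.87e-05). TRAF1, an adaptor that is itself an NF-kB target, rose to 54.2, 61.1 and 59.4 CPM in siZNF514, against 30.2, 28.0 and 29.2 CPM in nc (1.00, SE 0.07). IRAK2 (0.51, SE 0.07) and TRAF6 (0.40, SE 0.07), which carry signals from interleukin 1 and Toll-like receptors, rose as well. XIAP, chosen after its values were seen, had the largest rise of the list (1.58, SE 0.54) but rested on uneven libraries, with 792, 722 and 162 counts in siZNF514 and 201, 170 and 198 in nc. XIAP did not pass in 5 of the 6 fits that left out a library and passed at 2.04 without siZNF514 replicate 3.

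Of the 10 kinases, 3 fell, 1 rose and 6 did not pass. The IkB kinase subunit genes CHUK and IKBKB went in opposite directions. CHUK had 44.2, 49.6 and 45.4 CPM in siZNF514, against 115, 98.0 and 108 CPM in nc (-1.21, SE 0.08), and IKBKB 22.6, 25.5 and 24.4 CPM in siZNF514, against 17.3, 17.5 and 17.4 CPM in nc (0.47, SE 0.08). TAB3 (-1.31, SE 0.08) and MAP3K7 (-0.45, SE 0.08), which form a complex that activates the IkB kinases, fell. IKBKB did not pass in limma-trend on log2(FPKM + 0.1) (0.31, adjusted p = 0.0722).

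Of 15 tested genes of other restraining factors, 4 rose, 1 fell and 10 did not pass. BCL3, an atypical IkB protein that works in the nucleus with the NFKB1 and NFKB2 products, rose to 33.4, 33.8 and 35.6 CPM in siZNF514, against 19.8, 17.4 and 17.4 CPM in nc (0.91, SE 0.08, edgeR adjusted p = 0.000144). TNIP1, which binds the TNFAIP3 product, fell (-0.32, SE 0.08). RNF11 (0.29, SE 0.06) and COMMD1 (0.51, SE 0.16) rose in the main comparison, but neither passed with total counts alone, and COMMD1, of the 6 fits that left out a library, passed only without siZNF514 replicate 1 (0.65, adjusted p = 0.0110).

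Of 24 tested target genes, 8 rose and 7 fell, and the other 9 did not pass. The adhesion gene ICAM1 rose, at 342.9, 336.6 and 341.8 CPM in siZNF514 and 259, 271 and 272 CPM in nc (0.35, SE 0.04), as did IER3, an early response gene (0.46, SE 0.04). IL6 fell to 27.5, 28.7 and 28.1 CPM in siZNF514, against 59.1, 72.5 and 72.7 CPM in nc (-1.28, SE 0.09). LCN2, a secreted iron-binding protein, fell to 3.92, 3.91 and 3.59 CPM in siZNF514, against 15.8, 19.6 and 15.7 CPM in nc (-2.16, SE 0.14). The list therefore did not move in 1 direction. CXCL10, an interferon-induced chemokine chosen after its values were seen, had 1, 0 and 4 counts in siZNF514, against 31, 19 and 20 in nc. BCL2A1, a survival gene that could not be tested and was also chosen after its values were seen, had 11, 9 and 9 counts in siZNF514, against 1, 0 and 0 in nc.

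**Figure D5:**
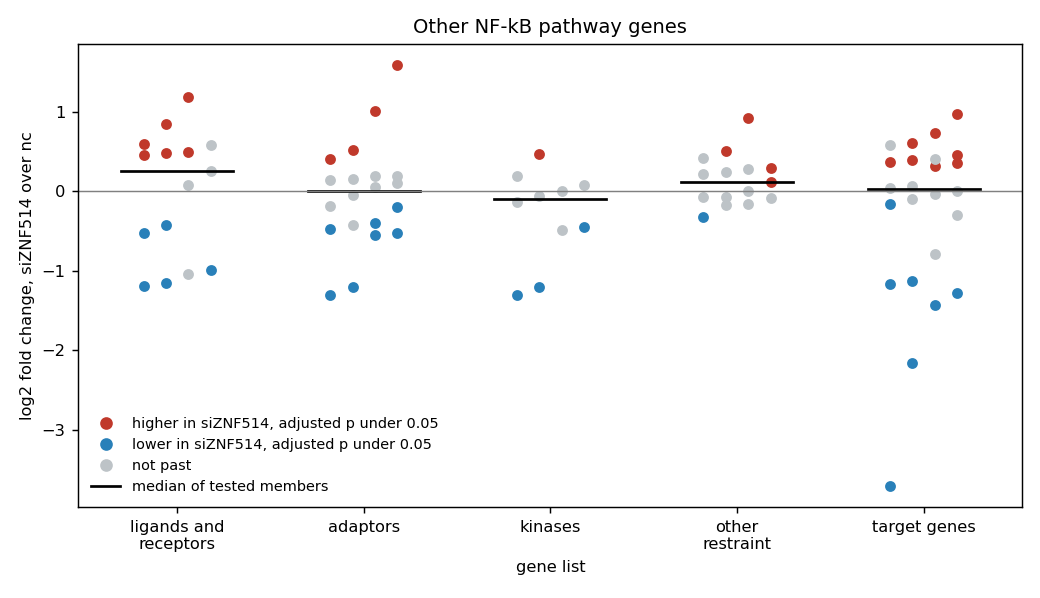
Log2 fold change, siZNF514 over nc, of the tested genes of 5 NF-kB pathway lists (points; red rose, blue fell, grey did not pass) with the median of each list (black line). Medians run from -0.09 for kinases to 0.25 for ligands and receptors, and every list holds genes past the threshold in both directions.

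The genes with the most similar pattern were found by the distance between mean-centred log2 CPM values over the 6 libraries. For NFKB2 the nearest were TBCD, UBE2S and RAB11FIP1, at distances of 0.0467 to 0.0536, beside a median of 0.971 over all genes. For NFKBIB they were ISYNA1, MAGT1 and ZNF445, at 0.0684 to 0.0948, beside a median of 0.721. None of these 6 is on the pathway lists. They were picked as the nearest, so their distances lie below the median by construction and are not a test.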

How the data were processed

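RNA of 6 KYSE-150 libraries was sequenced, and the authors deposited 1 table with a raw count and an FPKM column per library. Tools named in the submitters' processing notes are StringTie 1.3.3b, HISAT2 2.0.4 and edgeR, with the build hg38, and no roles are given. The annotation release and the strand setting were not stated in the labels. Per the file headers the deposited FPKM values are the authors' own.

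Columns were matched to libraries by title. Genes were filtered with filterByExpr (minimum count 10, minimum total 15), scaled by TMM and tested by the edgeR 4.0.16 quasi-likelihood test (R 4.3.3) with Benjamini-Hochberg adjustment over all 14250 genes at 0.05. Each SE is the size of the log2 fold change over the square root of F. CPM are counts over TMM-scaled library sizes, except in the marker sums and the levels per kilobase, which use total counts. Pairs of libraries within a group differed by a chi-square of 7.43 to 9.69 per degree of freedom, so none was a copy of another. This cannot tell separate cultures from repeated preparations of the same culture.

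The 10 genes, the gene lists and the tests were chosen with earlier results of these data known. Genes named are the 10, ZNF514, the 4 with the smallest p in each list and the 3 nearest genes by pattern for a member in each direction. Marker genes and genes that overlap the 10 are named as well. LTBR, XIAP, CXCL10 and BCL2A1 are said to be chosen after seeing their values. IL33 and TNF, which could not be tested, were also named outside these rules. Exon lengths and overlaps came from GENCODE v29, whose coordinates matched those of the table for the 10 genes, and promoter sequences from RefSeq (GRCh38.p14). Alternatives were a replicate block, leaving out each library, edgeR scaling by relative log expression (RLE) in place of TMM, and the DESeq2 1.42.0 Wald test. Others were library totals without TMM, another filter (none, or an average of 50 counts), and limma-trend (limma 3.58.1) on FPKM. For the last, log2 values were taken after adding 0.1 (or 0.01, or 1) to genes averaging at least 0.1 FPKM, or 0.5 in a stricter run. Summing REL with AC010733.1 and lengths from merged exons were added after seeing the data.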

Additional observations from a re-analysis of the deposited data

How the results depend on the processing

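NFKBIE and REL had the fewest counts of the 10 genes, 104 to 203 and 115 to 400 a library, which with 3 libraries a group limits the precision of their values. The number of the 10 genes that fell, 1 in the main comparison, was 2 with the DESeq2 Wald test, with total counts alone, with a mean count of at least 50 and in all 4 limma-trend fits on FPKM, since NFKB1 then passed. It was 0 with no filter, and 0 to 2 with each library left out. With total counts alone the median of all genes moved by -0.13, and of the genes called 34.3% were higher, against 50.3% with TMM; in the limma-trend fits on FPKM it was 34.5% to 37.5%. Limma-trend with a pseudocount of 0.01 called 2411 genes higher, against 3629.

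RELA, which did not pass, changed sign in the limma-trend fits (-0.21, -0.20, -0.20 and -0.15), with a mean count of at least 50 (-0.011), with the replicate block (-0.070), with total counts alone (-0.10), and without nc replicate 3 (-0.0017), siZNF514 replicate 1 (-0.095) or siZNF514 replicate 3 (-0.21). With each library left out RELA ran from -0.21 to 0.34 and REL from -0.71 to 0.40, the last without nc replicate 1. The cause was not tested. The log2 difference of RELB over RELA, 0.64, ran from 0.045 to 0.87 with each library left out. That of the 3 IkB genes over the 5 subunits, -0.37 by FPKM, was -0.24 with raw counts.

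Same-numbered libraries did not deviate together (correlations of 0.0075, 0.041 and -0.036, beside -0.063 to 0.053 for different numbers). This shows no shared deviation, but cannot tell whether same-numbered libraries were paired in culture or preparation. With the replicate block 6640 genes passed, against 7212 without, and of the 10 genes 7 passed, against 6, the added gene being NFKBIA (0.29, edgeR adjusted p = 0.0461).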
